A study of Mus musculus with 4 samples.

Results

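Conventional type 2 dendritic cells (cDC2) of the mouse liver were examined in 4 single-cell RNA sequencing libraries, 2 made after treadmill exercise and 2 from sedentary mice. Members were chosen by transcripts alone. A barcode was taken when it held at least 500 unique molecular identifiers (UMIs, each counting 1 captured RNA molecule), came from 200 genes or more, had no more than 20% of its UMIs from mitochondrial genes, and held at least 1 UMI of Cd209a together with at least 1 UMI of Flt3, Clec10a, Mgl2, Itgax, Tnfsf9 or Dcstamp. Barcodes with any UMI of Siglech, Xcr1, Chil3, Cd79a or Cd3e, or with 3 or more of the 6 Kupffer cell genes Clec4f, Timd4, Vsig4, Cd5l, Marco and Folr2, were left out. The selection gave 94 cells of 15020 barcodes that passed the first limits. There were 16 and 34 cells in exercise replicates 1 and 2 and 27 and 17 in sedentary replicates 1 and 2.

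All mice were wild-type adults of strain C57BL/6. The exercise group ran on a motorized treadmill at 12.5 m/min, and the sedentary group was kept on a treadmill that stood still, in both cases for 60 min a day on 5 days a week over 4 weeks. Collagenase-digested liver was depleted of hepatocytes and CD45+ leukocytes were taken with magnetic beads before 10x Genomics 3′ libraries were made, per the labels. The series text instead speaks of flow sorting and of nuclei, so whether whole cells were loaded is not settled, and mitochondrial shares and UMI totals should be read with that limit. Serum alanine aminotransferase, a marker of hepatocyte injury, was 26 and 59 U/L in the exercise replicates and 33 and 56 U/L in the sedentary ones. The labels do not say whether each library is a separate animal, so p-values measure the spread between these samples, which may be technical.

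Dendritic cells take up antigen, load peptides onto MHC molecules and show them to T cells. The cDC2 lineage grows under FLT3 ligand, depends on transcription factors such as IRF4 and KLF4, carries lectin receptors such as CD209a and CLEC10A, and mainly presents antigen on MHC class II to CD4+ T cells. The cDC1 lineage instead depends on IRF8 and BATF3, carries XCR1 and is known for cross-presentation to CD8+ T cells. Monocytes entering a tissue can take on several cDC2 transcripts, so the border between both is known to be hard to draw on RNA.

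The cells were deep relative to the rest of the libraries. Median UMIs per member were 6239 and 5694 after exercise and 5188 and 5860 in the sedentary libraries, against 2756, 2899, 2066 and 2435 over all kept barcodes of the same libraries. Summed over members, the libraries held 101229, 225952, 142616 and 101893 UMIs, which sets the precision of every value that follows. Levels are given as UMIs per 1000000 UMIs, summed over the members of a library (CPM). Mitochondrial UMIs made up a median of 2.19% to 2.38% of a member. None of the 94 members (0) was among the 460 cells that a search for doublets marked, and 0 barcode sequences were shared between members of different libraries. Among all kept cells 121 barcode sequences occurred in more than 1 library, and 3 members carried 1 of these. Summed over 10 hepatocyte markers the members held 79.0 and 35.4 CPM after exercise, below the 217 and 88.3 CPM of the sedentary libraries. These values rest on 8, 8, 31 and 9 UMIs. All kept barcodes showed the same order of groups, at 91.0 and 71.2 CPM after exercise and 815 and 384 CPM in the sedentary libraries.

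Some of the genes on which results rest have near-identical relatives, and their reads are separable only where the copies differ. Clec10a and Mgl2 are neighbouring lectin genes on chromosome 11 (build GRCm38), and 90.5% of 927 aligned coding bases were identical. The stretches of 60 coding bases shown here lie in exon 8 of Clec10a (chr11:70170207-70170266, plus strand) and exon 9 of Mgl2 (chr11:70136717-70136776, plus strand), with the 4 bases that differ in capitals.
Clec10a: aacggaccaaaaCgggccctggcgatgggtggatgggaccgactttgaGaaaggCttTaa
Mgl2: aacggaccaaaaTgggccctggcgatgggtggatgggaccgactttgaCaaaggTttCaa
Lyz2 and Lyz1 are the macrophage and the intestinal lysozyme gene, side by side on chromosome 10, with 95.1% of 447 coding bases identical. Their last 60 coding bases, in exon 4 of Lyz1 (chr10:117288583-117288642, minus strand) and of Lyz2 (chr10:117278121-117278180, minus strand), differ at 2 positions, again in capitals.
Lyz1: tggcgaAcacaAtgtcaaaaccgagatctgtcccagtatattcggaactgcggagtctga
Lyz2: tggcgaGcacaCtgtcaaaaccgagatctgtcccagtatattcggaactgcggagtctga
Over the last 400 bases of the GENCODE transcript, where a 3′ library draws its reads, 0% of windows of 60 bases in Cd209a, Clec10a and Plac8 and 2.6% of those in Mgl2 occurred in a transcript of another gene, against 13.2% in Lyz2, all in Lyz1. A read in such a window of Lyz2 cannot be assigned to 1 of the pair. The shared windows of Mgl2 occurred in Efr3a, Gm5860 and H2-Q6, and not in Clec10a. The members held 1 and 1 UMIs of Lyz1 after exercise and 0 and 0 in the sedentary libraries, against 366, 718, 116 and 91 UMIs of Lyz2 in the same order.

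The genes of the selection are a description of how the cells were picked. Of these 7 genes, 5 were in the fit over all genes given below, but no result is drawn from their tests. Cd209a, a C-type lectin of the DC-SIGN family (chromosome 8, bases 3743397 to 3748984, minus strand), stood at 988 and 925 CPM after exercise and 912 and 1413 CPM in the sedentary libraries. A member held between 1 and 34 Cd209a UMIs, with a median of 5. Clec10a, the macrophage galactose-type lectin 1, was at 178 and 182 CPM against 259 and 245 CPM and had a UMI in 49 of 94 members. Mgl2, its relative, was uneven between libraries, at 19.8 and 274 CPM against 133 and 452 CPM, and exercise replicate 1 had it in 2 of 16 cells. Itgax, which encodes the integrin CD11c, was at 188 and 155 CPM against 231 and 177 CPM. Flt3, the receptor for the growth factor of the lineage, was at 98.8 and 128 CPM against 70.1 and 118 CPM. Tnfsf9, the ligand of the co-stimulatory receptor 4-1BB, had a UMI in 7 members and ran from 0 to 29.4 CPM, and Dcstamp, a cell fusion gene, had 0 UMIs.

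**Figure D1:**
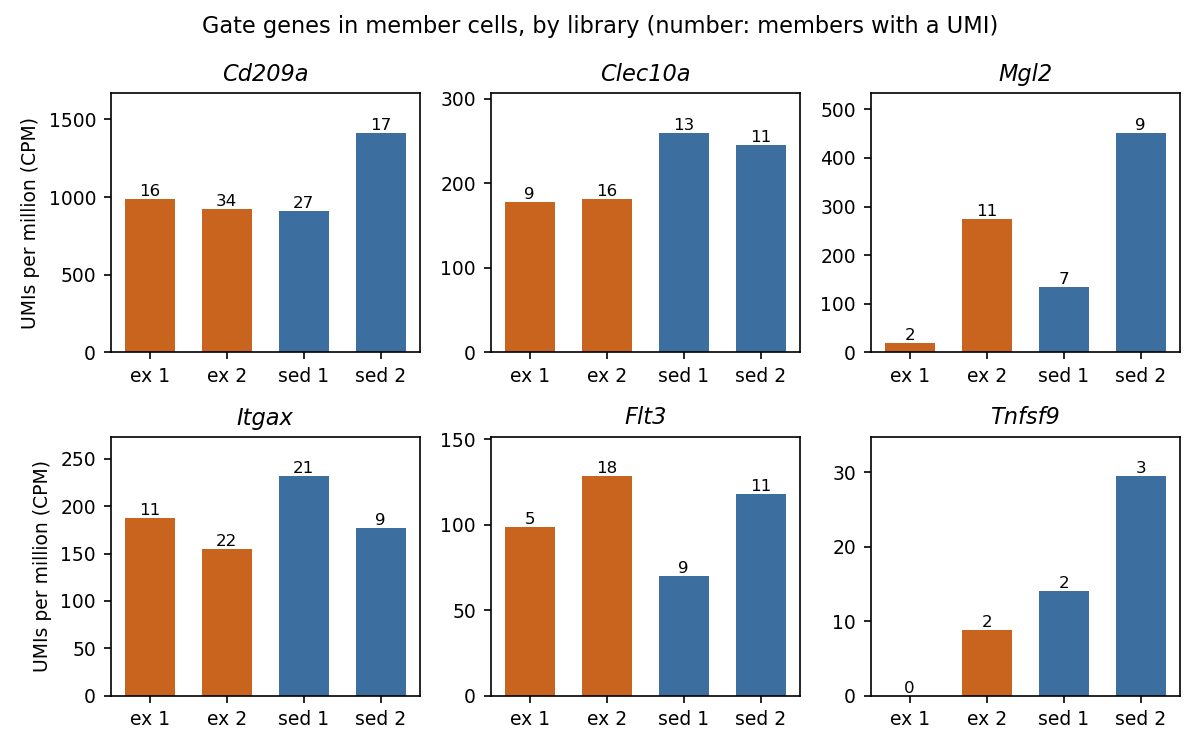
Level of 6 genes of the selection in the member cells of each library (bars, UMIs per 1000000 summed over members, linear axes from 0; ex, exercise; sed, sedentary), with the number of members that hold a UMI above each bar. Cd209a lies between 912 and 1413 CPM in all 4 libraries, while Mgl2 runs from 19.8 to 452 CPM.

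Members lay at different distances from the limits of the rule. Of the 94, 74 held at least 2 Cd209a UMIs and 20 held exactly 1, and the latter were spread as 1, 6, 8 and 5 cells over exercise 1 and 2 and sedentary 1 and 2. The number of companion genes found in a cell was 1 in 27 members, 2 in 42, 3 in 20 and 4 in 5. Exactly 2 of the 6 Kupffer cell genes, the most that the rule allows, were found in 33 members. By library these were 4, 15, 7 and 7 cells in the same order. After thinning of every cell to 1000 UMIs, 4, 13, 15 and 9 barcodes met the rule. Flt3 and Itgax were found together in 23 members, and Clec10a and Itgax in 29. Just outside the rule, 20 barcodes had Cd209a and no companion gene, 23 were left out by their Kupffer cell genes alone, and 217 by an exclusion gene alone. Of those left out by an exclusion gene, 180 carried Siglech, a receptor of plasmacytoid dendritic cells (pDCs). Pooled over the libraries, those 180 had Irf8 at 3522 CPM and H2-Aa at 3610 CPM, against 206 and 11730 CPM over all members. Of 371 barcodes with Cd209a and a companion gene, more were thus left out by exclusion genes than were kept.

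Levels outside the rule were compared with the label. Zbtb46, a transcription factor of conventional dendritic cells, stood at 29.6 and 53.1 CPM after exercise and 21.0 and 19.6 CPM in the sedentary libraries, with a mean of 30.9 CPM against 34.6 CPM in cDC1 selected in the same way on Xcr1 (167 cells) and 0 CPM in classical monocytes selected on Chil3 (97 cells). H2-Aa, an MHC class II chain, was between 10680 and 14140 CPM in the 4 libraries, with a mean of 11850 CPM against 10490 CPM in cDC1 and 1459 CPM in classical monocytes. Sirpa, a surface receptor of cDC2 and macrophages, had a mean of 134.9 CPM against 15.8 CPM in cDC1. Klf4 had 101.8 against 26.6 CPM, and Irf4 had 18.9 against 0.690 CPM, with an Irf4 UMI in 10.6% of members. Irf8 was lower, at 229 against 2009 CPM in cDC1. Clec9a, the receptor by which cDC1 bind dead cells, was also lower, at 14.2 against 174.5 CPM. Irf8 and Clec9a are among the companion genes by which cDC1 were selected, so their high level there follows in part from that selection. Fscn1, a marker of migrating mature dendritic cells, had 0 UMIs in the members against 2022 CPM in mature dendritic cells selected on Ccr7. Fscn1 likewise belongs to the companion genes that selected those mature cells. Other cDC1 markers were found too. Batf3 averaged 141 CPM with a UMI in 50 members, and Wdfy4 averaged 111.5 CPM with a UMI in 35. For Zbtb46, a count of 0 would allow up to 29.6 and 13.3 CPM after exercise and 21.0 and 29.4 CPM in the sedentary libraries. Against classical monocytes, the label of conventional dendritic cells thus matched H2-Aa and, at low counts, Zbtb46. H2-Aa was also found in other cells. After thinning, an H2-Aa UMI was found in 97.9% of members and 97.0% of B cells. The share was 84% in mature dendritic cells, 78.2% in Kupffer cells and 73.7% in pDCs. It was lower in classical monocytes (32.0%) and T cells (14.3%). By this measure H2-Aa did not tell the members from B cells. Sirpa, Klf4 and Irf4 of the type 2 lineage were above cDC1. Their levels in classical monocytes are not given in the text, so the values given do not tell the members from monocytes. The levels compared between populations are means over the same 4 libraries and were not tested, since the populations were defined by their transcripts.

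Transcripts of Kupffer cells were found in the members, although barcodes with 3 or more of the 6 Kupffer genes had been left out. All 15 of the 15 Kupffer markers had a UMI, and their sum was 830 and 1115 CPM after exercise and 1129 and 746 CPM in the sedentary libraries. C1qa, a complement subunit made by macrophages, averaged 148 CPM in the members, 160 CPM in T cells, 203 CPM in B cells and 5806 CPM in Kupffer cells. After each cell was thinned to 1000 UMIs, a C1qa UMI was found in 12.8% of members (94 cells), 13.7% of T cells (1807 cells) and 16.3% of B cells (1906 cells). Without thinning the shares were 50.0%, 34.8% and 25.8%, at median depths of 5674, 2801 and 1556 UMIs. After thinning, the C1qa share of the members was thus no higher than that of lymphocytes. Other markers of the list were above lymphocytes. Adgre1, which encodes the macrophage protein F4/80, averaged 53.8 CPM in the members against 15.3 CPM in T cells and 23.1 CPM in B cells, and Cd163, a haemoglobin scavenger receptor, 31.5 CPM against 12.3 and 13.5 CPM. The part of Kupffer cell RNA in the results was not tested.

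**Figure D2:**
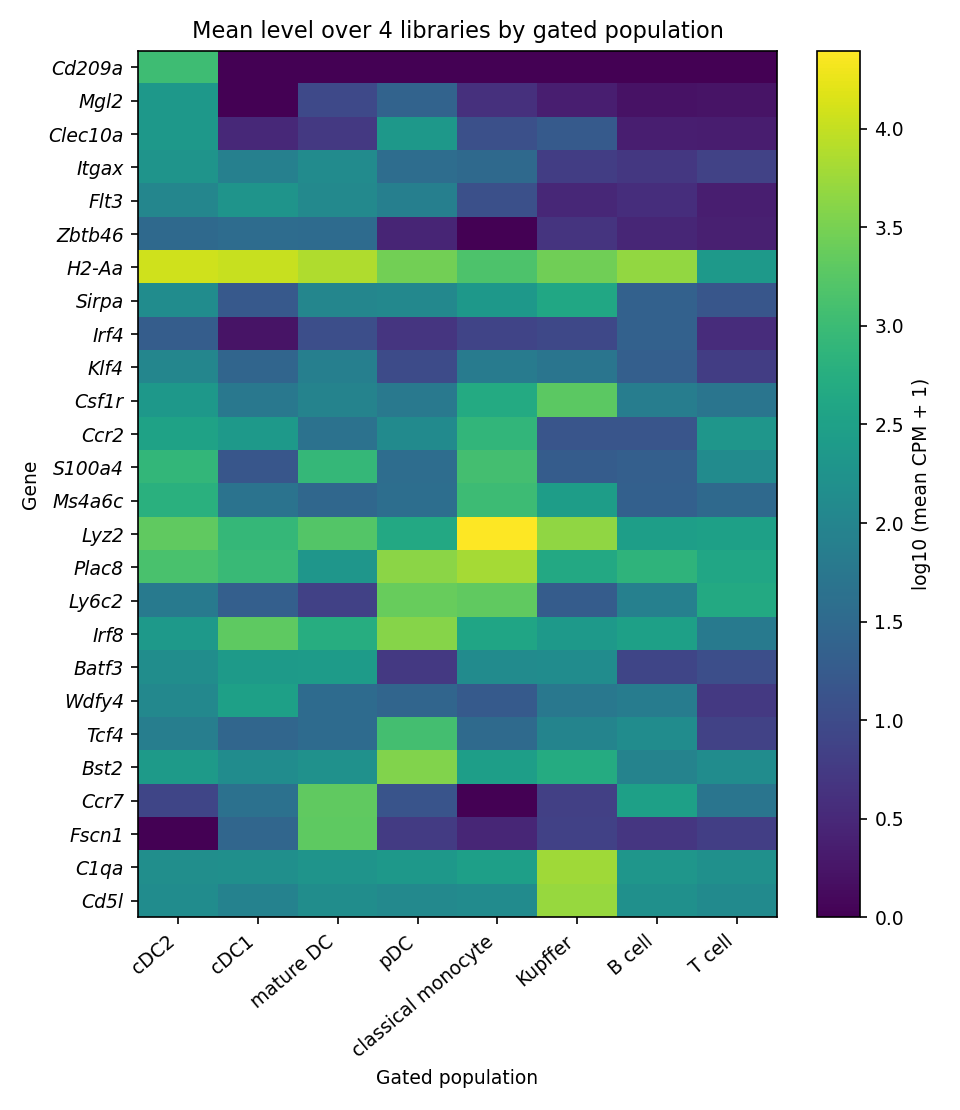
Mean level over the 4 libraries of 26 genes in members (cDC2) and in 7 populations selected on other genes (colour, log10 of mean CPM plus 1; rows, genes; columns, populations). Cd209a is at 0 in every other population, by rule in all but mature dendritic cells, Zbtb46 is shared with cDC1 and mature dendritic cells, and C1qa and Cd5l stand out only in Kupffer cells.

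The genes with the largest ratio of member to other cells, among those with a UMI in at least 20% of members, describe the population further and follow in part from the selection. After Cd209a (38.1-fold) and Mgl2 (36.1-fold) came Bex6 (24.5-fold), Lmo1 (21.2-fold, a LIM-domain transcription cofactor), Eps8 (18.5-fold, an actin-capping protein) and Spint1 (18.0-fold, an inhibitor of serine proteases). Lmo1 was at 98.8 and 79.7 CPM after exercise and 49.1 and 108 CPM in the sedentary libraries and had a UMI in 31 members. It had a mean of 83.9 CPM in the members, 35.3 CPM in cDC1 and 18.3 CPM in classical monocytes. Tnip3, an inhibitor of NF-kB signalling, was 15.7-fold and Ltb4r1, the receptor for leukotriene B4, 13.9-fold over other cells. Alcam, an adhesion molecule that binds CD6 on T cells, was 9.34-fold, and the chemokine Ccl9 9.33-fold. S100a4, a calcium-binding protein, was 8.72-fold over other cells and had a UMI in 84 members. Its mean of 801.7 CPM lay far above the 13.9 CPM of cDC1 and below the 1224 CPM of classical monocytes. Ms4a6c showed the same order, with 604.8, 47.1 and 1043 CPM.

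The members were not uniform. Levels on the sides of the Ly6c2 split and of the Mki67 or Top2a split are pooled over the cells of all libraries. Differences between libraries and groups are therefore mixed with these splits. A UMI of Ly6c2, a surface protein of classical monocytes and also of pDCs, was found in 19 members, of which 2, 11, 2 and 4 were in exercise 1 and 2 and sedentary 1 and 2. Those 19 had Lyz2 at 5824 CPM against 1328 CPM in the other 75, Plac8 at 2882 against 1010 CPM and H2-Aa at 9188 against 12400 CPM. Flt3 was at 161 CPM in the 19 and 92.6 CPM in the rest. A UMI of Mki67 or Top2a, genes of dividing cells, was found in 11 members (0, 5, 2 and 4 by library), with Stmn1 at 1316 against 8.46 CPM and Tubb5 at 4019 against 512 CPM. A Ccr7 UMI was found in 1 member, and Ccl17 or Ccl22, chemokines that draw CCR4-bearing T cells, in 4 members. All Ccl22 UMIs came from 1 cell of sedentary replicate 1. Of the genes used to separate the described kinds of cDC2, Tbx21 and Esam each had a UMI in 1.06% of members. Ltb and Cd81, listed with them, had a UMI in 35.1% and 33.0% of members. Both are also found in other cells, with Ltb at 159 CPM in the members against 326 CPM in all other kept cells. Cd81 was at 95.3 against 754 CPM. Csf1r, the receptor for macrophage colony-stimulating factor, averaged 222 CPM in the members against 57.2 CPM in cDC1, 50.9 CPM in T cells and 1926 CPM in Kupffer cells. Cx3cr1, the fractalkine receptor, averaged 65.7 CPM against 8.12 CPM in cDC1, 4.15 CPM in T cells and 10.02 CPM in Kupffer cells. Clec12a averaged 154 CPM in the members, 163 CPM in cDC1 and 448 CPM in Kupffer cells. Levels of Csf1r, Cx3cr1 and Clec12a in classical monocytes are not given in the text, so these genes do not place the members against monocytes.

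The share of cDC2 among all kept barcodes was 0.549% in exercise replicate 1 (95% interval by the exact binomial method 0.314 to 0.889) and 0.806% in exercise replicate 2 (0.559 to 1.12). In sedentary replicates 1 and 2 it was 0.671% (0.442 to 0.974) and 0.441% (0.257 to 0.705). The highest library was an exercise one and the lowest a sedentary one, and the groups overlapped. The mean was 0.677% ± 0.182 (SD, n = 2) against 0.556% ± 0.163 (SD, n = 2), with p = 0.667 in an exact two-sided permutation test, whose smallest possible p here is 0.33. Among cDC1 and cDC2 together the share was 32.0% and 46.6% after exercise and 32.9% and 30.4% in the sedentary libraries. The means were 39.3% ± 10.3 and 31.6% ± 1.82 (SD, n = 2 each, exact permutation p = 0.667). With 2 libraries a group no share could reach an exact permutation p below 0.33. The difference also moved with the rule. Without any exclusion gene, which adds mostly Siglech-positive barcodes, the shares of kept barcodes were 2.33% and 2.53% after exercise and 1.76% and 1.69% in the sedentary libraries, and the groups did not overlap (exact permutation p = 0.33, the smallest possible). With at least 2 Cd209a UMIs they were 0.514% and 0.663% against 0.472% and 0.311%, again with no overlap (exact permutation p = 0.33). Without exercise replicate 2 the difference among kept barcodes was -0.00725 percentage points in place of 0.121. Once every cell was thinned to 1000 UMIs, the means were 0.223% after exercise and 0.310% in the sedentary group. Intervals cover counting error only.

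**Figure D3:**
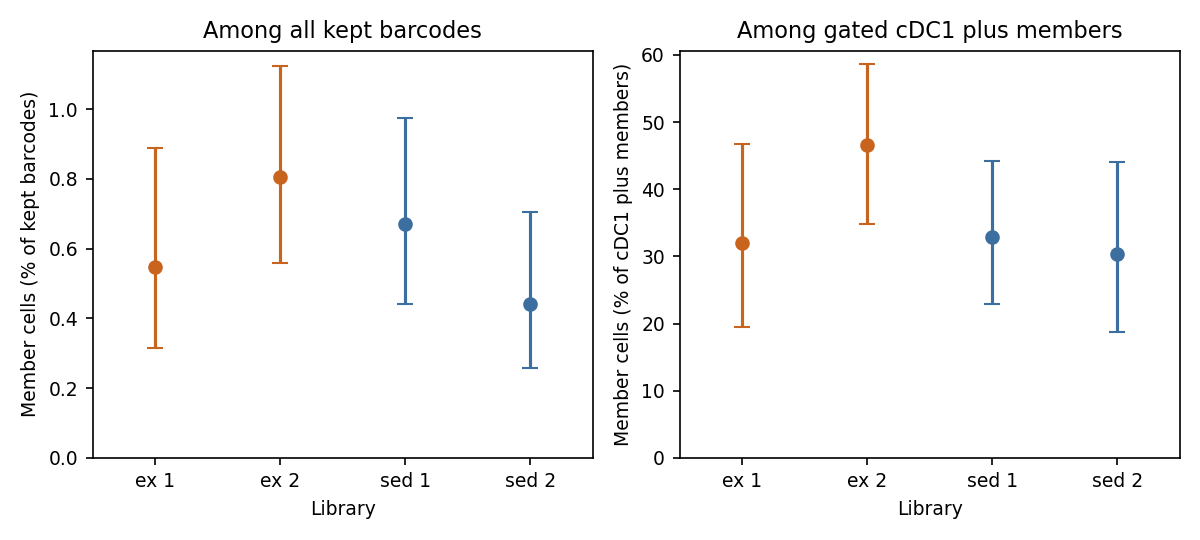
Share of member cells in each library among all kept barcodes (left) and among cDC1 plus members (right), in percent (points), with exact binomial 95% intervals (bars; axes from 0; ex, exercise; sed, sedentary). The intervals of all 4 libraries overlap in both panels.

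The comparison of exercise with the sedentary state within cDC2 asked which transcripts of these cells differed after the training. UMIs were summed over the members of each library and tested with edgeR's quasi-likelihood test, with Benjamini-Hochberg adjustment over 1535 genes. Of these, 2 passed at an adjusted p of 0.05, Lyz2 and Plac8, which is 0.130% of the genes tested. Both were higher after exercise, and 0 genes were lower. Without adjustment 44 genes were higher (2.87%) and 36 lower (2.35%) at 0.05, and DESeq2 called 1 higher and 0 lower. Leaving out any 1 of the 4 libraries gave 5 to 6 higher and 2 to 12 lower genes, so the counts depend on each library. The groups did not overlap in 284 genes that were higher (18.5%) and 238 that were lower (15.5%). On counts simulated with the means and depths of these libraries, the test recovered 24 of 93 genes changed by 1 on the log2 scale. It recovered 76 of 82 changed by 2 among 1372 genes, with 2 false calls among unchanged genes. In that setting, changes of 1 or less would mostly be missed. Every gene was given the same dispersion of 0.05, which was not estimated from these data, so recovery in the data may differ.

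Lyz2, which encodes lysozyme M, an antibacterial enzyme of monocytes, macrophages and granulocytes (chromosome 10, bases 117277331 to 117282321, minus strand), stood at 3616 and 3178 CPM after exercise and 813 and 893 CPM in the sedentary libraries. Both exercise libraries lay far above both sedentary ones. The log2 change was 1.97 (SE 0.146, edgeR adjusted p = 5.16e-05). Other cells of the same libraries had Lyz2 at 966 and 808 against 892 and 745 CPM in cDC1, at 28520 and 25010 against 22340 and 23390 CPM in classical monocytes, at 633 and 234 against 153 and 231 CPM in T cells and at 212 and 318 against 360 and 277 CPM in B cells. Whether the change in cDC2 differs from that in cDC1 or monocytes was not tested, since cDC2 had fewer than the 20 cells set as a minimum in 2 libraries.

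Few cells carried most of the Lyz2 UMIs. In exercise replicate 1 a single cell held 209 of 366 UMIs (57.1%), and in exercise replicate 2 the highest cell held 16.7%, against 15.5% and 20.9% in the sedentary libraries. Per 10000 UMIs of a cell, the median was 2.63 and 7.32 after exercise and 4.52 and 6.20 in the sedentary libraries. The median cells of the groups therefore overlapped. The highest cell reached 391 and 241 after exercise and 54.3 and 30.5 in the sedentary libraries. At least 20 Lyz2 UMIs per 10000 were found in 4 of 16, 13 of 34, 4 of 27 and 2 of 17 cells. Without the highest cell of each library, a comparison chosen after seeing the data, the levels were 1637 and 2706 CPM against 712 and 753 CPM. The log2 change was then 1.58 with an edgeR adjusted p of 0.157, and 0 genes passed in either direction (67 at an unadjusted p of 0.05). Lyz2 passed in each of the other 16 alternatives, of which the stricter barcode filter and the removal of doublets left the same cells, with a log2 change between 1.28 and 2.83.

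Plac8, a small cysteine-rich protein abundant in monocytes and pDCs (chromosome 5, bases 100553725 to 100572245, minus strand), was at 1798 and 1797 CPM after exercise and 806 and 942 CPM in the sedentary libraries. The log2 change was 1.03 (SE 0.156, edgeR adjusted p = 0.0300). Here the median cell also lay higher after exercise, at 13.99 and 11.4 per 10000 UMIs against 4.34 and 1.58. The highest cell held 25.8% and 14.04% of the UMIs against 19.1% and 26.0%. The call was lost in 7 of 17 alternatives, among them DESeq2 (adjusted p = 0.0741), members with at least 2 Cd209a UMIs (log2 change 0.68, edgeR adjusted p = 0.663) and the comparison without sedentary replicate 1 (0.90, edgeR adjusted p = 0.0555). In other cells Plac8 was at 4404 and 4400 against 4406 and 4078 CPM in pDCs and at 690 and 1197 against 952 and 1015 CPM in cDC1.

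**Figure D4:**
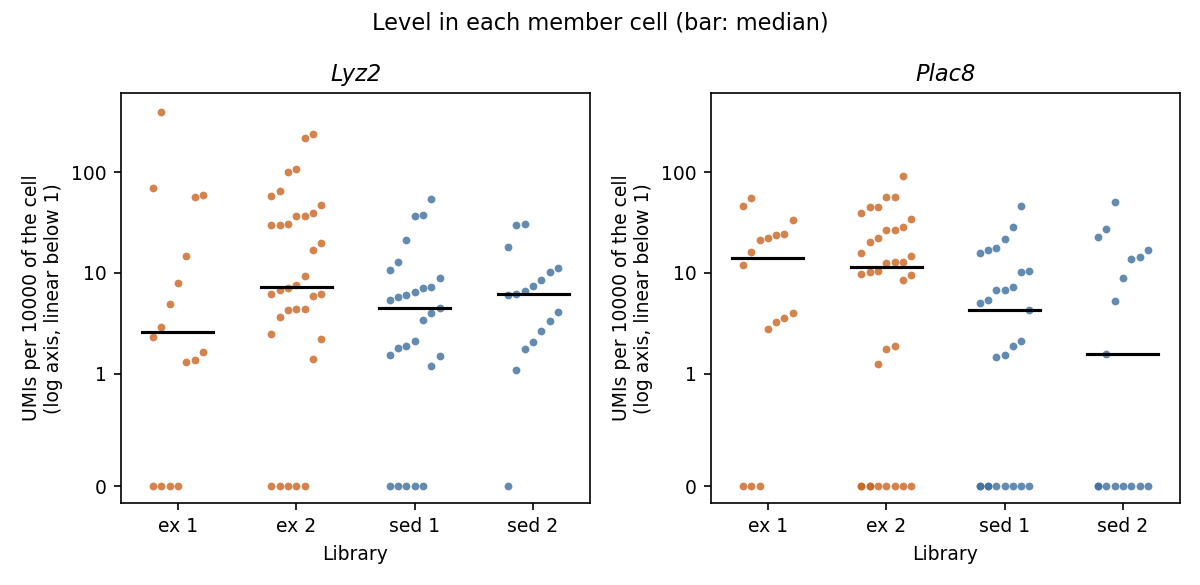
Lyz2 (left) and Plac8 (right) in each member cell, as UMIs per 10000 UMIs of that cell (points; axis logarithmic above 1 and linear below; bars, medians; ex, exercise; sed, sedentary). The upper ends of the Lyz2 distributions are higher after exercise (391 and 241 against 54.3 and 30.5), whereas the medians of Lyz2 overlap between the groups and those of Plac8 do not.

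Markers of monocytes and pDCs in the members were set beside these changes. Summed over 16 monocyte markers, of which 14 had a UMI and Chil3 (by the rule) and Vcan were at 0, the members had 7547 and 7842 CPM after exercise and 4039 and 4043 CPM in the sedentary libraries. Without Lyz2 and Plac8, which belong to that list, the sums were 2134 and 2868 CPM against 2419 and 2208 CPM and overlapped. Of the 5 genes tested in that shorter list, 3 were above 0 and 2 below, and 0 passed. Their median log2 change was 0.01 and the highest 0.87. On the higher side, 1 had an unadjusted edgeR p below 0.05 and 1 had separate groups, against 2.87% and 18.5% of all genes tested. F13a1, a monocyte transglutaminase, was at 19.8 and 31.0 CPM against 0 and 0. A count of 0 allows up to 21.0 and 29.4 CPM in these sedentary libraries, so the groups are not told apart by F13a1. Cd14, a co-receptor for lipopolysaccharide, was at 9.88 and 0 CPM against 14.02 and 0. Without the 19 members with Ly6c2, Lyz2 had a log2 change of 1.28 and Plac8 of 0.79 (edgeR adjusted p = 7.36e-07 and 0.0459). Of 10 pDC markers 9 had a UMI, Siglech being at 0 by the rule, and their sum was 1017 and 496 CPM against 288 and 275 CPM. At least 2 of 6 defining pDC genes were found in 1 and 2 members of the exercise libraries and in none (0) of the sedentary ones. Without these 3 cells Plac8 had a log2 change of 0.98 (edgeR adjusted p = 0.0558). The sums of the 9 neutrophil markers were 39.5 and 566 CPM against 35.1 and 88.3 CPM, and without the 17 members with S100a8 or S100a9 the change of Plac8 was 0.71 (edgeR adjusted p = 0.750). In the members without hepatocyte or erythroid UMIs, Lyz2 had a log2 change of 2.83 (edgeR adjusted p = 0.0217) and Plac8 of 1.62 (0.289).

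Among genes that did not pass, those with the smallest p and separate groups were named by rule. Rsrp1, an arginine- and serine-rich protein, was at 484 and 381 CPM after exercise and 175 and 167 CPM in the sedentary libraries (log2 change 1.29, edgeR adjusted p = 0.430). Cebpb, a transcription factor of monocyte and macrophage differentiation, was at 267 and 150.5 CPM against 42.1 and 58.9 CPM (1.95, edgeR adjusted p = 0.456). Cebpb was found in 3 and 18 cells after exercise and 3 and 4 cells in the sedentary libraries. Il6st, the signalling chain of the interleukin-6 receptor family, was at 138 and 119.5 CPM against 35.1 and 39.3 CPM (1.74, edgeR adjusted p = 0.828). On the other side, Junb, a subunit of the AP-1 transcription factor, was at 464 and 491 CPM against 904.5 and 765.5 CPM (-0.82, edgeR adjusted p = 0.456). Pim1, a serine kinase induced by cytokines, was at 237 and 230.1 CPM against 456 and 442 CPM (-0.96, edgeR adjusted p = 0.732). Etv3, an ETS-family repressor, was at 29.6 and 22.1 CPM against 112 and 98.1 CPM (-2.08, edgeR adjusted p = 0.828). Rgs1, a regulator of chemokine receptor signalling, was at 9.88 and 44.3 CPM against 98.2 and 177 CPM (-2.01, edgeR adjusted p = 0.828). Exercise replicate 1 held 1 Rgs1 UMI, and the change was -1.60 without that library and -3.64 without exercise replicate 2. Tsc22d3, a gene induced by glucocorticoids, was at 109 and 137 CPM against 273.5 and 255 CPM (-1.08, edgeR adjusted p = 0.828). None of these 8 genes passed the test as planned. Under alternatives, Cebpb passed without a low-count filter (edgeR adjusted p = 0.0424), without exercise replicate 2 (0.00293) and without sedentary replicate 2 (0.0425). Rsrp1 passed without exercise replicate 2 (edgeR adjusted p = 0.0134) and without the Ly6c2-positive members (0.0236).

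Genes induced by interferon lay on 1 side. Of 24 genes in the list 8 were tested, and 8 of 8 had a positive log2 change whose median was 0.67, against 747 of 1535 genes and a median of -0.01 over all genes tested. None (0) passed after adjustment, and 4 had an unadjusted p under 0.05. Over all genes tested, 2.87% were higher at that p. The groups did not overlap in 4 of the 8, against 18.5% of all genes tested on the higher side. Ly6e, the most abundant of the 8, overlapped, at 1314 and 1292 CPM after exercise and 1164 and 1335 CPM in the sedentary libraries. Its log2 change of 0.04 was the lowest of the 8 (edgeR adjusted p = 0.997). Bst2, the antiviral protein tetherin and also a pDC marker, was at 326 and 332 CPM after exercise and 168 and 147 CPM in the sedentary libraries (1.03, edgeR adjusted p = 0.828). Without the 3 cells with pDC genes its change was 0.45, and without the 19 Ly6c2-positive cells 0.20. Isg15, a ubiquitin-like protein, was at 128 and 230.1 CPM against 98.2 and 78.5 CPM (1.06, edgeR adjusted p = 0.922). Ifi27l2a was at 721 and 1611 CPM against 792 and 579 CPM, so that exercise replicate 1 lay between the sedentary libraries (0.78, edgeR adjusted p = 0.922). The value for Ifi27l2a rests on exercise replicate 2: its change was 0.04 without that library and 1.19 without exercise replicate 1 (edgeR adjusted p = 0.997 and 1.11e-05). Without the 19 Ly6c2-positive cells it was 0.87 (edgeR adjusted p = 0.0378).

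Immediate early and heat shock genes had 10 of 15 tested genes below 0 (median log2 change -0.23), and 0 passed. The groups were separate in 7 of the 15 on the lower side and in 1 on the higher side, against 15.5% and 18.5% of all genes tested. Fos, the partner of JUN proteins in AP-1, was at 247 and 310 CPM after exercise and 407 and 412 CPM in the sedentary libraries. Zfp36, which destabilises cytokine mRNAs, was at 227 and 279 CPM against 407 and 383 CPM. Jun itself overlapped, at 267 and 257 CPM against 294.5 and 206 CPM. Lower Junb in both exercise libraries was also seen in other cells of the same libraries, at 505 and 402 against 632 and 699 CPM in Kupffer cells and at 440 and 435 against 650 and 881 CPM in T cells. These differences in other cells were not tested. Of 7 glucocorticoid-induced or quiescence genes tested, 5 were below 0 and 0 passed, with Btg1, a growth-restraining gene, at 603 and 394 CPM against 638 and 805 CPM (-0.59, edgeR adjusted p = 0.922).

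Antigen presentation on MHC class II was high in every library. Of 17 genes in the list 16 were tested, of which 12 had a negative change with a median of -0.13 and 0 passed. Cd74, the invariant chain that guides class II molecules, was at 29770 and 31680 CPM after exercise and 33220 and 42160 CPM in the sedentary libraries (-0.32, SE 0.130, edgeR adjusted p = 0.922). H2-Ab1, a class II beta chain, was at 10980 and 12050 CPM against 11890 and 15390 CPM and overlapped (-0.26, edgeR adjusted p = 0.956). Ctss, the protease that trims the invariant chain, was at 1008 and 1341 CPM against 1494 and 1610 CPM. Ciita, the class II transactivator, was at 138 and 102 CPM against 112 and 108 CPM. Sedentary replicate 2 had the highest Cd74, H2-Aa and H2-Ab1 of the 4 libraries.

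Sensing, migration and cytokine genes showed 0 calls. Of 33 pattern recognition genes 5 were tested and 4 were above 0, with a median of 0.58. Clec12a, an inhibitory lectin that senses uric acid crystals, was at 178 and 186 CPM after exercise and 126 and 128 CPM in the sedentary libraries (0.51, edgeR adjusted p = 0.956). Syk, the kinase downstream of activating lectins, was at 98.8 and 111 CPM against 49.1 and 58.9 CPM (0.97, edgeR adjusted p = 0.930). Of 6 cytokine and chemokine genes tested, 3 were above and 3 below 0. Ccl6, a CC chemokine of myeloid cells, was at 306 and 491 CPM against 168 and 255 CPM (0.96, edgeR adjusted p = 0.922). Il1b overlapped, at 88.9 and 177 CPM against 119 and 314 CPM. Il12b, Il6 and Il10 had 0 UMIs in all members, which allows up to 5.25 CPM over the 94 cells together. Ccr2, the receptor that brings monocytes and their relatives into tissue, was at 267 and 416 CPM against 407 and 275 CPM and overlapped. Alcam, 1 of the genes with a large ratio over other cells, was at 79.0 and 75.2 CPM against 140 and 167 CPM (-0.998, edgeR adjusted p = 0.922).

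**Figure D5:**
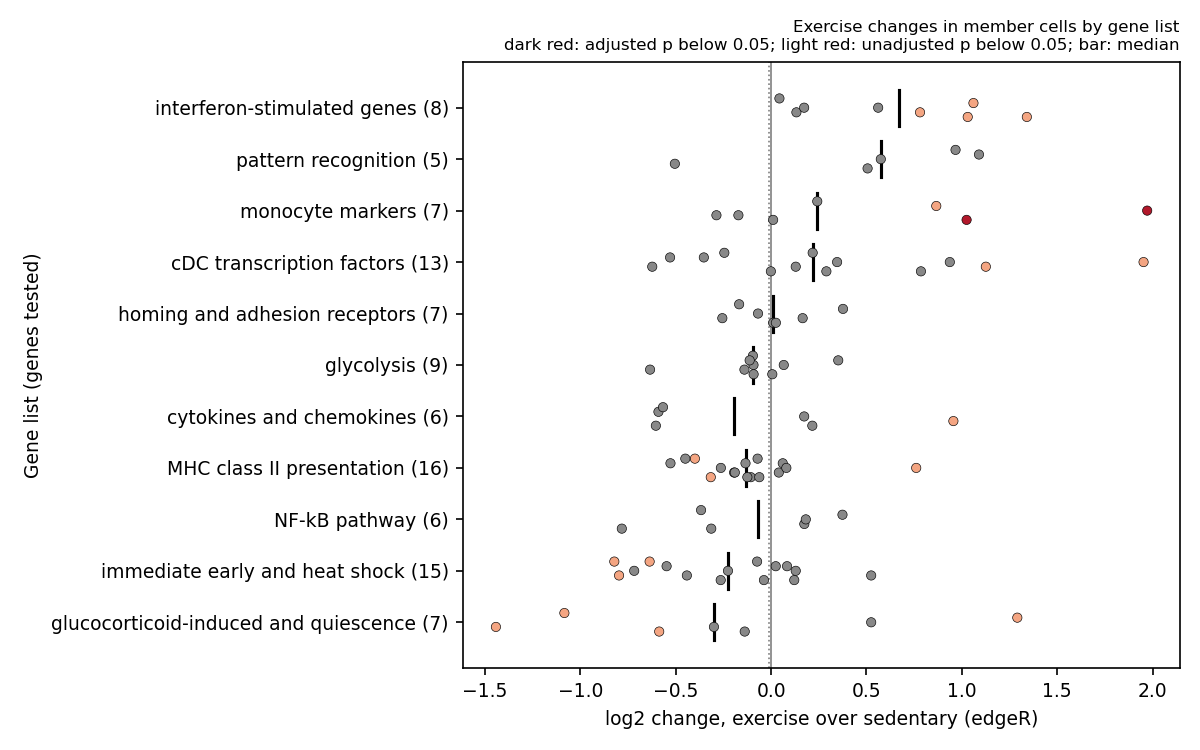
Log2 change of exercise over sedentary (horizontal axis) for each tested gene of 11 lists (points; bars, list medians; solid line, 0; dotted line, the median of all 1535 genes). Dark red marks the calls Lyz2 and Plac8 among monocyte markers, light red an unadjusted p below 0.05, and all 8 interferon-stimulated genes lie above 0.

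Programmes of metabolism and division did not separate the groups as lists. Of 9 glycolysis genes tested 3 were above 0 and 6 below, with a median of -0.09. Gapdh, a glycolytic enzyme, was at 820 and 898 CPM after exercise and 785 and 844 CPM in the sedentary libraries. Of 11 mitochondrially encoded genes 4 were above 0 and 7 below, with sums of 23800 and 23690 CPM against 24280 and 23770 CPM. The sums of 18 cell cycle genes were 1916 and 4160 CPM against 2959 and 4622 CPM, and exercise replicate 1, which had 0 members with Mki67 or Top2a, was the lowest. Among the transcription factors of dendritic cells 13 were tested, with 8 above 0, 5 below and 0 calls. Notch2, a receptor required for part of the cDC2 lineage, was at 109 and 115 CPM against 42.1 and 78.5 CPM, while Klf4 overlapped, at 69.2 and 142 CPM against 147 and 49.1 CPM.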

How the data were processed

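The deposited values were whole-number UMI counts per gene and barcode, which the authors did not normalize. Cell Ranger and Seurat 3.1 with GRCm38 (mm10) are listed in the submitters' processing notes. The series text names a pre-mRNA reference and nuclei, whereas the labels describe CD45+ cells, so intronic reads may be counted. How cells were called and whether strand was used are not given in the sources used here.

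Barcodes were selected as described, with no clustering. Doublets were scored per library against simulated ones and marked at 0.8% per 1000 cells. UMIs were summed per library over member cells and tested with edgeR 4.0.16 (R 4.3.3, TMM, filterByExpr, quasi-likelihood test, no covariate, Benjamini-Hochberg at 0.05) after the script was tested on simulated data. DESeq2 1.42.0 was an alternative, and shares were compared with scipy 1.17.1. Comparisons with cDC1 and with classical monocytes in 1 fit had a minimum of 20 cells per library and were not run, since cDC2 had 16 and 17 cells in 2 libraries.

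Genes were named by rule: those of the selection, those past the test (filled to 5 per direction by smallest p among genes with a mean of at least 20 CPM and separate groups), the 4 most abundant tested genes of each list, and the 20 with the largest ratio over other cells. Any other gene was named after its values were seen. The members and lists were chosen with earlier results of these data known. Coordinates and transcript sequences are from the GENCODE annotation of GRCm38.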

Additional observations from a re-analysis of the deposited data

How the results depend on the processing

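The difference in share among kept barcodes reversed when cells were thinned to 1000 UMIs (-0.0874 in place of 0.121 percentage points) and ranged from -0.00725 to 0.250 when 1 library was left out. Among cDC1 and cDC2 it was -10.1 when thinned and 0.358 to 14.9 with 1 library left out, in place of 7.65. Both differences were larger without exclusion genes (0.708 and 12.0) and with at least 2 Cd209a UMIs (0.197 and 10.2), where the groups did not overlap. For the share among cDC1 and cDC2, the same change was made to the cDC1 rule. That rule then had no exclusion genes or asked for at least 2 Xcr1 UMIs. The count of genes higher after exercise (2) was 1 with DESeq2, with at least 2 Cd209a UMIs, and in members without hepatocyte or erythroid UMIs, and 6 without a low-count filter. The count of lower genes (0) was 2 without that filter. Leaving out 1 library gave 5 to 6 higher and 2 to 12 lower genes, in fits where the lone library is assumed to vary like the other group. In alternatives chosen after seeing the data, the counts were 5 higher and 1 lower without Ly6c2-positive members, 0 higher without the top Lyz2 member of each library, 1 higher without S100a8- or S100a9-positive members and 1 higher without members with pDC genes. The causes were not tested. The stricter barcode filter and the removal of doublets left the same member cells.

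A replicate block gave 5 higher and 10 lower genes. The labels share only replicate numbers, and with 2 pairs the correlation of deviations (0.254) is the same for both numbers, so it does not show a pairing. Of 509 log2 changes for 31 tested genes whose exercise comparison is given, 23 changed sign, in 7 genes that had not passed the test. Ly6e was not among those followed. Without members holding hepatocyte or erythroid UMIs Jun was -0.478 and Ccr2 -0.477. With at least 2 Cd209a UMIs Ciita was -0.0757 and Klf4 -0.0130. Without the top Lyz2 members Jun was -0.0299 and Ccr2 -0.0359. Without S100a8- or S100a9-positive members Jun was -0.0581, Ciita -0.0166, Ccr2 -0.147 and Gapdh -0.0100. Without Mki67- or Top2a-positive members Jun was -0.280, Ciita -0.151 and Ccr2 -0.0411. With 1 library left out the change ran from -0.173 to 0.310 for Jun, -0.141 to 0.300 for Ciita, -1.25 to 0.250 for Il1b, -0.393 to 0.326 for Ccr2, -0.0140 to 0.136 for Gapdh, -0.597 to 1.17 for Klf4 and -0.375 to 0.0220 for H2-Aa. Of the 29 that did not pass as planned, 8 passed in at least 1 alternative (Rsrp1, Cebpb, Junb, Pim1, Rgs1, Ifi27l2a, Ccl6 and Cd74). Without TMM the median change of all genes was 0.03 in place of -0.01. The fits of the difference from cDC1 and from monocytes and their alternatives were not run.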
